A study of Homo sapiens with 6 samples.

Results

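Death receptors carry signals for cell death from the cell surface to the caspases, and 10 genes of this system were followed in the ovarian cancer cell line HEY with and without depletion of the splicing factor PQBP1. The genes were taken by name from the deposited gene table, which lists 32679 genes: the receptors FAS, TNFRSF10A, TNFRSF10B, TNFRSF10C, TNFRSF10D and TNFRSF1A, and the intracellular proteins FADD, CFLAR, TRADD and RIPK1. All 10 genes had 1 row each, and 9 of them reached the mean of 1 FPKM over the samples that was required for the test across genes. FPKM counts fragments relative to transcript length and to the total mapped in a library, so levels of genes can be set side by side.

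The study has 6 RNA-seq samples of HEY cells taken at day 3. In 3 of them the cells carried a control hairpin and had no treatment (shNC), and in the other 3 they carried a hairpin against PQBP1 and had been given doxycycline at 1 µg per ml (shPQBP1). Going by these labels, effects of the hairpin and of doxycycline cannot be told apart. The methods describe stable lentiviral lines selected with puromycin, and all shPQBP1 samples carried the same hairpin label. The labels do not say whether the samples of a group came from separate cultures, so the p-values measure only the spread between these samples, which may be technical. RNA was selected by poly(A), and the sequencing depth of the samples is unknown because the table holds no counts. Summed over all genes, FPKM came to 294970.3 to 318484.3 for shNC and to 278285.8 to 287422.6 for shPQBP1.

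In the extrinsic pathway of apoptosis a ligand clusters its receptor, and the death domain in the receptor's tail recruits adaptor proteins. FAS and the TRAIL receptors TNFRSF10A and TNFRSF10B bind FADD, which brings in caspase-8, and CFLAR encodes cFLIP, a caspase-8 relative that controls the activation of the caspase at this complex. TNFRSF10C and TNFRSF10D bind TRAIL without a complete death domain and are known as decoy receptors, while the TNF receptor TNFRSF1A works through TRADD and RIPK1, which lead to NF-κB signalling or, in another complex, to cell death.

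PQBP1, the target of the hairpin, was at 7.18, 6.67 and 6.93 FPKM in shNC samples 1, 2 and 3 and at 1.68, 1.72 and 1.44 in shPQBP1 samples 1, 2 and 3. The groups did not overlap, and PQBP1 fell by 2.04 on the log2(FPKM + 0.1) scale (SE 0.10, adjusted p = 0.00154, limma with Benjamini-Hochberg adjustment). Across the 11413 genes tested, 332 (2.91%) passed an adjusted p of 0.05, with 197 higher and 135 lower in shPQBP1. Leaving out shNC sample 1 gave 466 such genes, and leaving out any one of the other 5 samples gave 30 to 93. Of 10 epithelial and ovarian marker genes, 6 reached a mean of 1 FPKM, and MUC16 and CDH1 were not among them. The summed level of these markers was 222 to 259 FPKM in shNC and 243 to 271 in shPQBP1. Single markers moved within it: MSLN rose by 0.82 on the log2 scale (adjusted p = 0.0187), PAX8 was at 12.3 to 15.7 FPKM in shNC and 18.4 to 24.1 in shPQBP1, and WT1, below the filter, at 0.63 to 0.71 and 0.31 to 0.45. The leukocyte marker PTPRC was at 0 in all samples, and 1 of 5 leukocyte, 1 of 4 endothelial and 1 of 7 stromal markers reached that mean, namely CD68, CDH5 and ACTA2.

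None of the 9 tested death receptor genes passed an adjusted p of 0.05 in either direction in limma, against 2.91% of all genes tested (1.73% higher and 1.18% lower). At an unadjusted p of 0.05, 1 of the 9 genes passed, the lower TNFRSF10B, against 23.6% of all genes (11.9% higher and 11.7% lower). Without shNC sample 1 or without shNC sample 2, 2 passed, against 24.8% and 25.8% of all genes. In 3 of the 9 genes the shPQBP1 samples did not overlap with the shNC samples, with 1 gene higher (RIPK1) and 2 lower (TNFRSF10B and TNFRSF10D), against 34.4% of all genes (17.3% higher and 17.1% lower). These shares were near or below the background. The median log2 fold change of the 9 genes was 0.14, compared with 0.02 over all genes tested, and in the values as deposited none of the 9 differed by more than 0.31 on the log2 scale. A change of more than 2-fold at an unadjusted p below 0.05 was seen in 1.52% of all genes and in none of the 9.

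**Figure D1:**
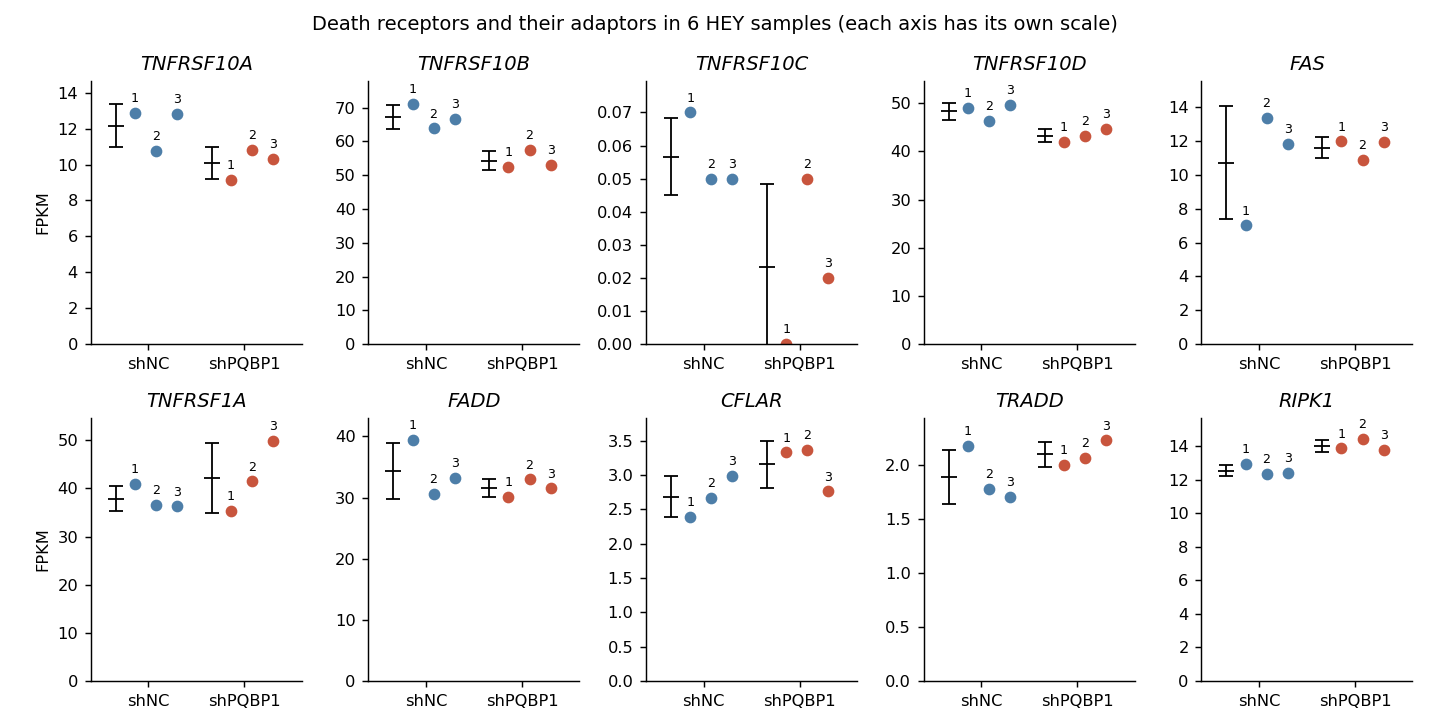
FPKM of the 10 genes in each sample, shNC in blue and shPQBP1 in red, with the sample number above each point and the mean and SD (n = 3) as a bar to the left of the points. Each panel has its own axis from 0, where the SD bar of TNFRSF10C ends. TNFRSF10B and TNFRSF10D lie lower and RIPK1 higher in all shPQBP1 samples, and the other 7 panels show overlapping groups.

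The levels of the 10 genes spanned a wide range. In shNC cells the TRAIL receptor TNFRSF10B had the highest mean with 67.2 FPKM, followed by the decoy receptor TNFRSF10D with 48.4. TNFRSF1A with 37.9 and FADD with 34.4 came next and overlapped in their samples. RIPK1 with 12.5, TNFRSF10A with 12.2 and FAS with 10.7 formed a middle group in which each gene overlapped with its neighbour. CFLAR with 2.68 and TRADD with 1.89 were low and did not overlap with each other, and TNFRSF10C was listed near 0. The order of the means in shPQBP1 cells was the same except that FAS, with 11.6, stood above TNFRSF10A, with 10.1. There TNFRSF10D overlapped with TNFRSF1A, and no other gene overlapped with its neighbour in the order.

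The 3 tested TRAIL receptor genes all had lower means in shPQBP1, although none passed the adjusted test. The values of TNFRSF10B, which encodes the receptor DR5, were the most separate. TNFRSF10B was at 71.1, 63.8 and 66.6 FPKM in shNC samples 1, 2 and 3 and at 52.4, 57.4 and 53.1 in the shPQBP1 samples. Every shPQBP1 sample was below the lowest shNC sample. The mean went from 67.2 ± 3.66 to 54.3 ± 2.73 FPKM (SD, n = 3). On the log2 scale the difference was -0.31, which is a ratio of 0.809, with a 95% interval from -0.49 to -0.12. The adjusted p was 0.0894 in limma, and the exact permutation test gave p = 0.1, the smallest that 3 samples against 3 allow. The end of TNFRSF10B overlaps on the opposite strand with the end of RHOBTB2, which was at 2.27 to 3.36 FPKM, and reads of the shared stretch can be split only by strand. The strand setting is not given in the sources used here.

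TNFRSF10D, the gene of the decoy receptor DcR2, was at 49.1, 46.4 and 49.7 FPKM in shNC and at 41.9, 43.2 and 44.7 in shPQBP1. The groups were again separate, with a smaller distance than for TNFRSF10B. The difference was -0.16 on the log2 scale (95% interval -0.32 to 0.00, adjusted p = 0.218, limma). TNFRSF10A, which encodes the receptor DR4, was at 12.9, 10.8 and 12.8 FPKM in shNC and at 9.13, 10.8 and 10.3 in shPQBP1. Here shNC sample 2 lay within the range of the shPQBP1 samples. A log2 difference of -0.27 was found (95% interval -0.53 to 0.00, adjusted p = 0.215, limma). TNFRSF10C, the gene of the decoy receptor DcR1, was listed at 0.07, 0.05 and 0.05 FPKM in shNC and at 0, 0.05 and 0.02 in shPQBP1. These values are too low for a fold change, and the exact permutation test on them gave p = 0.3.

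The sum of the 4 TRAIL receptor genes was 133, 121 and 129 FPKM in shNC and 103, 112 and 108 in shPQBP1. TNFRSF10B made up between 49.1% and 53.4% of that sum in the 6 samples. Because the death-inducing and the decoy receptors share 1 ligand, their ratio was taken within each sample, where it does not depend on the scaling between samples. TNFRSF10A plus TNFRSF10B over TNFRSF10C plus TNFRSF10D was 1.71, 1.61 and 1.6 in shNC and 1.47, 1.58 and 1.42 in shPQBP1. The ratio was lower in each shPQBP1 sample, with shPQBP1 sample 2 close to the shNC samples, and the mean log2 difference was -0.14. The ratio of TNFRSF10B to TNFRSF10A overlapped between the groups, with 5.19 to 5.93 in shNC and 5.16 to 5.74 in shPQBP1. A lower FPKM in a culture cannot tell fewer expressing cells from less RNA per cell.

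The 4 TRAIL receptor genes lie within chr8:23020133-23225102 (hg38), a stretch of 205 kb, with TNFRSF10C on the plus strand and the others on the minus strand. The stretch also holds further listed genes, among them CHILL1, TNFRSF10A-AS1 and a protein-coding gene that overlaps TNFRSF10C on the same strand. Of the 40 other listed genes within 800 kb of this stretch, a distance chosen after the values had been seen, 19 passed the filter on low values. In 16 of these the log2 fold change was below 0 and in 3 above, compared with 5387 and 6026 of the 11413 genes tested, with a median of -0.22 compared with 0.02 over all genes tested. None passed an adjusted p of 0.05 in limma and 1 passed an unadjusted p of 0.05, against 23.6% of all genes tested. The groups did not overlap in 7 of the 19, with 6 lower and 1 higher, against 17.1% lower and 17.3% higher over all genes tested. LOXL2, the gene of a lysyl oxidase and the most abundant of the 19, was at 27.4, 24.5 and 23.1 FPKM in shNC and at 19.5, 22.3 and 22.1 in shPQBP1. The 3 tested TRAIL receptor genes, at -0.31 to -0.16, lay inside the range of -0.59 to 0.18 of these genes. The lowest of them, SLC39A14, was at 15.3, 6.08 and 15.5 FPKM in shPQBP1 and 16.4 to 17.5 in shNC, so its value rests on shPQBP1 sample 2, and the next lowest, CHILL1, was at -0.34. RHOBTB2, which overlaps the end of TNFRSF10B, was at a log2 difference of -0.15, within the spread of its samples. TNFRSF10A-AS1 and TNFRSF10A-DT overlap TNFRSF10A, so the 19 genes are not all separate from the receptor genes. All these values are as deposited, with the trend on GC content described below still in them. The cause of the shared direction was not tested.

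**Figure D2:**
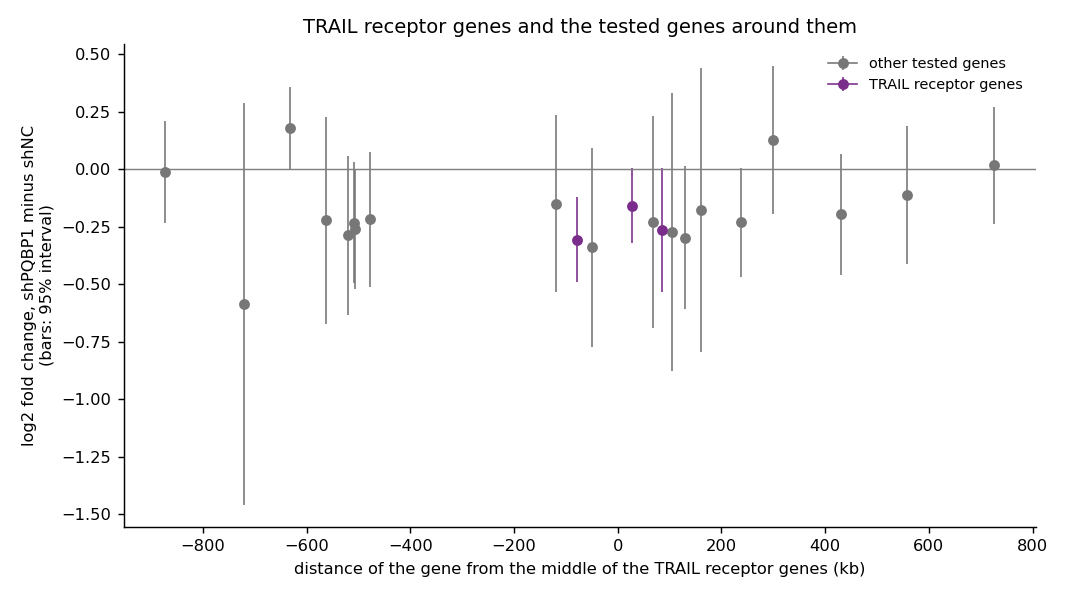
Log2 fold change (shPQBP1 minus shNC, on log2(FPKM + 0.1)) of the 3 tested TRAIL receptor genes, in purple, and of the 19 tested genes within 800 kb, in grey, against the distance of each gene from the middle of the TRAIL receptor genes in kb. Bars are 95% intervals from limma, and 16 of the 19 grey points lie below 0.

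FAS, the receptor of the FAS ligand, gave a different picture. It was at 7.01, 13.4 and 11.8 FPKM in shNC and at 12.0, 10.9 and 11.9 in shPQBP1. Only shNC sample 1 was low, and the other 5 samples lay between 10.9 and 13.4 FPKM. In shPQBP1 the log2 level differed by 0.16 with a 95% interval from -0.41 to 0.74 (adjusted p = 0.686, limma). Without shNC sample 1 the direction turned, with a log2 difference of -0.12. FAS shares its position on chr10:88953813-89029605 with ACTA2 on the opposite strand, which was at 6.98 to 9.53 FPKM, and with STAMBPL1 on the same strand, which was at 2.78 to 3.49. Of the 50-base stretches of its main transcript, 1.7% occur in another gene, an antisense long non-coding RNA gene, and none in ACTA2 or STAMBPL1.

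TNFRSF1A, the receptor of TNF, was at 40.9, 36.5 and 36.3 FPKM in shNC and at 35.4, 41.5 and 49.9 in shPQBP1. The shPQBP1 samples spread over a wider range than the shNC samples, and sample 3 held the highest value. On the log2 scale the groups differed by 0.14 (95% interval -0.19 to 0.48, adjusted p = 0.529, limma), by 0.02 without shPQBP1 sample 3 and by 0.27 without shPQBP1 sample 1. TNFRSF1A lies on chr12:6328757-6342114.

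FADD, the adaptor that joins FAS and the TRAIL receptors to caspase-8, was at 39.4, 30.5 and 33.2 FPKM in shNC and at 30.1, 33.0 and 31.5 in shPQBP1. The high value of shNC sample 1 set the mean of its group apart, and the samples overlapped. This gave a log2 difference of -0.12 (95% interval -0.38 to 0.15, adjusted p = 0.525, limma). Without shNC sample 1 it was -0.015, and without shNC sample 2 it was -0.20. FADD lies on chr11:70203296-70207390, and 55.2% of the 50-base stretches of its main transcript also occur in an antisense long non-coding RNA gene, which was listed at 0 in 5 of the 6 samples and at 0.20 FPKM in shPQBP1 sample 2.

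CFLAR, the gene of cFLIP on chr2:201116154-201176687, was at 2.39, 2.67 and 2.99 FPKM in shNC and at 3.33, 3.37 and 2.76 in shPQBP1. Its mean was higher in shPQBP1, although shPQBP1 sample 3 lay within the shNC range. Its log2 difference was 0.23, the largest positive one among the 9 genes, with a 95% interval from -0.09 to 0.54 (adjusted p = 0.328, limma), and it was 0.15 without shNC sample 1. Relative to CASP8, whose product cFLIP holds in check or helps along depending on its isoform, the level was separate between the groups. The ratio of CFLAR to CASP8 was 0.296, 0.294 and 0.352 in shNC and 0.367, 0.378 and 0.406 in shPQBP1. All shPQBP1 samples were above the highest shNC sample, with a mean log2 difference of 0.29. In shPQBP1 sample 3 the ratio was highest because CASP8 was lowest there, at 6.79 FPKM, while CFLAR lay within the shNC range. The ratio of CFLAR to FADD overlapped, with 0.0607 to 0.0901 in shNC and 0.0876 to 0.111 in shPQBP1. The table sums all transcripts of CFLAR, so the long and short forms of cFLIP cannot be separated here.

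RIPK1 and TRADD, which act at the TNF receptor TNFRSF1A, had higher means in shPQBP1, although neither passed the adjusted test. RIPK1, the kinase that links TNFRSF1A to NF-κB or to cell death, was at 12.9, 12.3 and 12.4 FPKM in shNC and at 13.9, 14.4 and 13.8 in shPQBP1. The groups were separate, with a narrow spread in each (SD 0.334 and 0.345, n = 3). The log2 difference was 0.16 (95% interval -0.01 to 0.33, adjusted p = 0.228, limma). TRADD, the adaptor that binds the receptor's death domain, was at 2.18, 1.78 and 1.71 FPKM in shNC and at 2.0, 2.07 and 2.23 in shPQBP1. Here shNC sample 1 lay among the shPQBP1 samples. TRADD differed by 0.15 on the log2 scale (95% interval -0.17 to 0.47, adjusted p = 0.493, limma), by 0.25 without shNC sample 1 and by 0.09 without shNC sample 3. The ratio of TRADD to RIPK1 had the same mean in both groups, 0.15. RIPK1 lies on chr6:3063824-3115187 and TRADD on chr16:67154185-67159909.

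The start sites of these genes are shown for the FAS receptor, its adaptor FADD and RIPK1, the gene with separate groups for which a promoter was at hand. RefSeq promoters (GRCh38.p14) matched 5 of the 10 genes by symbol, with 12 start sites in all for FAS, TNFRSF1A, FADD, CFLAR and RIPK1. Each run below reads 5′ to 3′ in the direction of the gene, from 100 bases before to 50 bases after the start, and capitals mark the letters TATAAA (the TATA box), GGGCGG (the GC box) or 2 copies of GAAA with NN, any 2 bases, between them (the core of the interferon-stimulated response element) on either strand.
FAS, start site 1, chr10:88990698-88990847, plus strand: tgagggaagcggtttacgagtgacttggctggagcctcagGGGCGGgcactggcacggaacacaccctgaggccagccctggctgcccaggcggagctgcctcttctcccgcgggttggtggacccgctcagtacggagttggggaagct
FADD, chr11:70203196-70203345, plus strand: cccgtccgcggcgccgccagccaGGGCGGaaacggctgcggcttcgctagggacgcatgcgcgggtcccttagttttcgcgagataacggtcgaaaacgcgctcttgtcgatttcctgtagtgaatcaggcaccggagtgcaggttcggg
RIPK1, start site 1, chr6:3063867-3064016, plus strand: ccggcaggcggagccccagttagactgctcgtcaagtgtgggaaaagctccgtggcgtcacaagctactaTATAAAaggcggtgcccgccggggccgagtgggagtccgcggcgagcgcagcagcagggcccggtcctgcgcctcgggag
RIPK1, start site 2, chr6:3068278-3068427, plus strand: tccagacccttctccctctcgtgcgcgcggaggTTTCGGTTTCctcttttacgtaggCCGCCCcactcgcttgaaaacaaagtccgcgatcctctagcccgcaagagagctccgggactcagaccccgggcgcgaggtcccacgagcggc

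The promoter of FADD and 2 of the 3 of FAS held the GC box, which binds factors of the SP family, and RIPK1 held a TATA box at its first start site and an interferon response core beside a GC box at its second. In all 35116 RefSeq promoters of the same length, 35% held the GC box, 5.99% the TATA box and 1.75% the interferon response core. The single start site of TNFRSF1A and the 4 of CFLAR held none of these letters. A match is a stretch of letters in a window and was not tested for binding, and the table does not say which start site was used in HEY cells.

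**Figure D3:**
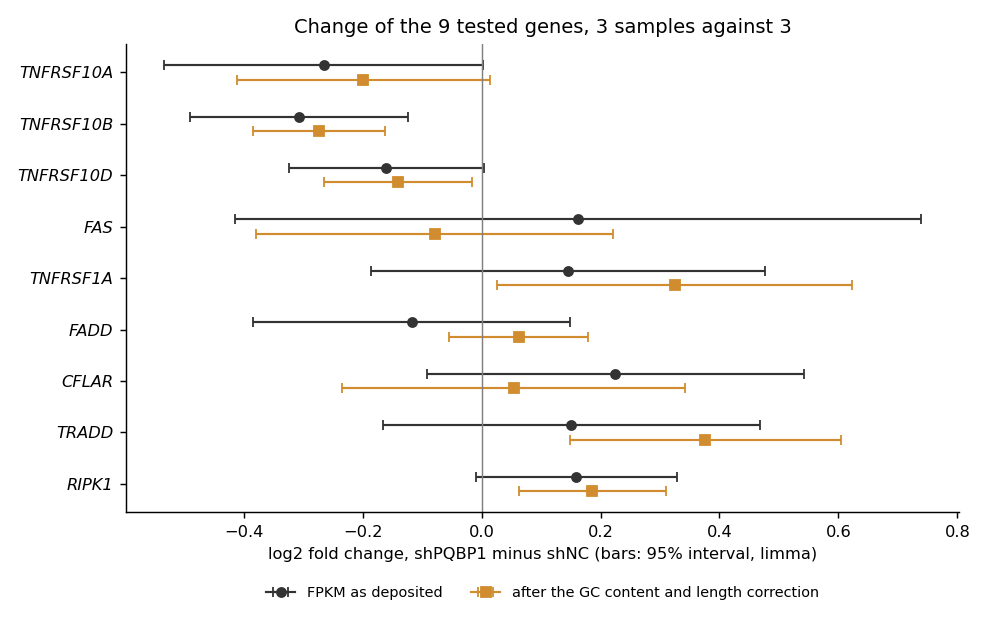
Log2 fold change (shPQBP1 minus shNC, on log2(FPKM + 0.1)) of the 9 tested genes with 95% intervals from limma, for FPKM as deposited (black circles) and after the trend with GC content and transcript length had been taken out of each sample (orange squares). FAS and FADD change sides of 0 with the correction, and the 3 TRAIL receptors stay below 0.

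The GC content of the transcripts moved with the differences between the groups. Over 11385 tested genes with a transcript, Spearman's rho between the log2 fold change and GC content was -0.459, a description across genes, which share the same 6 samples. FAS had the lowest GC content of the 10 genes with 38.0%, and its level in shNC sample 1 was 0.557 of the mean of the other 2 shNC samples. TRADD had the highest with 64.7%, and its level there was 1.25 of that mean. With the trend on GC content and length removed from each sample, TNFRSF10B was at a log2 difference of -0.27 and passed the test (adjusted p = 0.0229, limma), the only gene of the 9 to do so, against 938 (8.24%) of the 11385 genes. FAS turned to -0.08 and FADD to 0.06. TRADD was at 0.38 (adjusted p = 0.0636) and RIPK1 at 0.19 (adjusted p = 0.0777). TNFRSF1A was at 0.32 (adjusted p = 0.155), and CFLAR was at 0.05 (adjusted p = 0.799). After the correction the groups did not overlap in 6 of the 9 genes, against 35.9% of all genes there, with TNFRSF1A, TRADD and RIPK1 higher and TNFRSF10A, TNFRSF10B and TNFRSF10D lower. In that fit 5 of the 9 genes had an unadjusted p under 0.05, against 27.6% of all genes there, compared with 1 in the values as deposited.

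**Figure D4:**
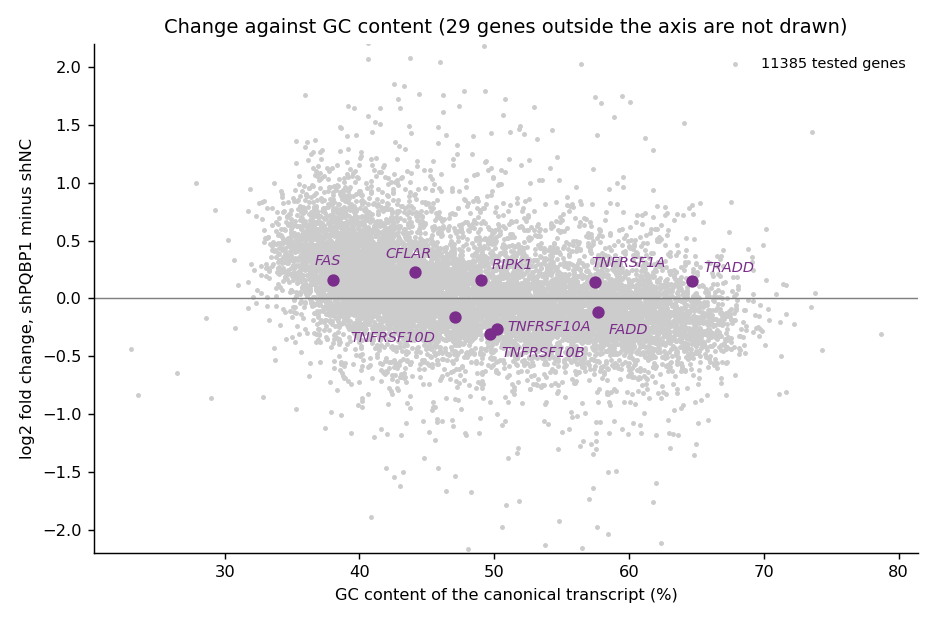
Log2 fold change (shPQBP1 minus shNC, on log2(FPKM + 0.1)) of the 9 tested genes, in purple, and of all tested genes with a transcript, in grey, against the GC content of the transcript in percent. The cloud slopes down with GC content, and 29 genes outside the vertical axis are not drawn.

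The rest of the pathway was described from 7 lists with 64 genes, of which 61 were in the table and 51 passed the filter on low values. Of these 51 genes, 1 passed an adjusted p of 0.05, higher in shPQBP1, against 2.91% of all genes tested. At an unadjusted p of 0.05, 12 genes passed, 4 higher and 8 lower, against 23.6%, and in 17 the groups did not overlap, against 34.4%. The median log2 fold change of the 51 genes was -0.10, compared with 0.02 over all genes.

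Among the death ligands, TNF was the only one of 6 to reach a mean of 1 FPKM. TNF was at 4.55, 4.29 and 5.16 FPKM in shNC and at 5.34, 6.85 and 6.03 in shPQBP1. All shPQBP1 samples were above the shNC samples, with a log2 difference of 0.37 (adjusted p = 0.153, limma). TNFSF10, the gene of TRAIL, was at 0.10 to 0.24 FPKM in shNC and 0.15 to 0.44 in shPQBP1. FASLG, the gene of the FAS ligand, was at 0 to 0.11 and 0 to 0.05 FPKM. The messages of the ligands of FAS, TNFRSF10A and TNFRSF10B were thus low in both groups.

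Of the other TNF receptors and soluble decoys, 6 of 10 were tested, with 2 positive and 4 negative log2 fold changes. TNFRSF11B, which encodes osteoprotegerin, a soluble receptor that binds TRAIL and RANKL, rose from 5.54, 5.36 and 6.32 FPKM in shNC to 9.18, 9.07 and 8.57 in shPQBP1. Its log2 difference was 0.63 (95% interval 0.41 to 0.86, adjusted p = 0.0268, limma), and the exact permutation test gave p = 0.1. The call was lost without any one of the samples other than shNC sample 1, with an adjusted p of up to 0.126 and a log2 difference of 0.59 to 0.70, and after the GC content correction, with an adjusted p of 0.0523 and a difference of 0.48. LTBR, the lymphotoxin beta receptor, was at -0.32 (adjusted p = 0.0818) and after that correction at -0.10 with no call at an unadjusted p of 0.05 (adjusted p = 0.486). EDA2R, the receptor of ectodysplasin A2, was at -0.25 (adjusted p = 0.131) and TNFRSF21, the gene of the death receptor DR6, at 0.18 (adjusted p = 0.240). In these 4 genes, which were taken for their small p, the groups did not overlap. Over the whole list that held for 4 of the 6 tested genes, 2 higher and 2 lower, against 34.4% of all genes tested.

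The modulators of FAS and TRAIL signalling held no gene that passed an unadjusted p of 0.05 among the 11 tested, against 23.6% of all genes. CASP8AP2, which encodes a caspase-8 binding protein, had the largest log2 difference with 0.97 (adjusted p = 0.218, limma). It was at 0.83, 2.53 and 1.80 FPKM in shNC and at 4.14, 2.33 and 3.31 in shPQBP1, with overlapping groups. ADAM10, a protease that sheds surface proteins, among them the FAS ligand, was at 0.53 (adjusted p = 0.311). DEDD2, a protein with a death effector domain, was at -0.55 (adjusted p = 0.301), and MADD, which binds the death domain of TNFRSF1A, at -0.17 (adjusted p = 0.374). CASP8AP2 and ADAM10 had a GC content of 38.1% and 37.5% and were at 0.383 and 0.490 of the mean of the other shNC samples in shNC sample 1. With the GC content and length correction CASP8AP2 was at 0.71 and ADAM10 at 0.19, and without shNC sample 1 they were at 0.55 and 0.20. DEDD2 was at -0.23 and MADD at -0.09 without shPQBP1 sample 1.

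Of the 19 genes of the TNF receptor complex and its ubiquitin editing, none passed the adjusted test in limma and 5 passed an unadjusted p of 0.05, 1 higher and 4 lower, against 23.6% of all genes tested, a share near that of the list. The 4 lower ones were the kinase partner TAB1 at a log2 difference of -0.46 (adjusted p = 0.0653), the NF-κB kinase IKBKB at -0.41 (adjusted p = 0.0680), RNF31 at -0.82 (adjusted p = 0.142) and RBCK1 at -0.30 (adjusted p = 0.133). RNF31 and RBCK1 encode HOIP and HOIL-1, subunits of the complex that puts linear ubiquitin chains on RIPK1 and other proteins of the TNF receptor complex. RNF31 was at 2.06, 2.08 and 3.51 FPKM in shNC and at 1.29, 1.10 and 1.76 in shPQBP1. IKBKB was at 2.99, 3.20 and 2.97 FPKM in shNC and at 2.27, 2.26 and 2.31 in shPQBP1. In these 4 genes, which were also taken for their small p, each shPQBP1 sample was below each shNC sample. Over the whole list the groups did not overlap in 6 of the 19 genes, 5 lower and 1 higher, against 34.4% of all genes tested. The higher gene without overlap was BIRC3, a ubiquitin ligase gene, at 0.74 (adjusted p = 0.254). The higher gene at an unadjusted p of 0.05 was TNFAIP3, which encodes the ubiquitin editing enzyme A20. TNFAIP3 was at 0.32 (adjusted p = 0.172), with overlapping groups. BIRC3 had a GC content of 35.8% and was at 4.93, 12.6 and 11.1 FPKM in shNC. Its level in shNC sample 1 was 0.416 of the mean of the other shNC samples, so its difference rests in part on that sample. TAB1, RNF31 and RBCK1 had a GC content of 60.2% to 61.0%. With the GC content and length correction TAB1 at -0.28 and IKBKB at -0.34 still passed an unadjusted p of 0.05, and RNF31 at -0.63 and RBCK1 at -0.13 did not.

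For necroptosis, a form of cell death downstream of RIPK1, 2 of 4 genes were in the table. MLKL, the protein that permeates the membrane, was at 8.15, 7.12 and 7.01 FPKM in shNC and at 6.26, 6.83 and 6.13 in shPQBP1. The groups were separate, with a log2 difference of -0.21 (adjusted p = 0.245, limma). PGAM5, a mitochondrial phosphatase, was at -0.33 (adjusted p = 0.435) with overlapping groups. Without shNC sample 1 PGAM5 was at -0.094 and without shNC sample 2 at -0.61, and MLKL was at -0.14 with the GC content and length correction. RIPK3, the kinase between RIPK1 and MLKL, was not analysed here.

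Downstream of FADD, the initiator CASP8 was at 8.07, 9.08 and 8.49 FPKM in shNC and at 9.07, 8.92 and 6.79 in shPQBP1. The groups overlapped, with shPQBP1 sample 3 the lowest, and the log2 difference was -0.06 (95% interval -0.38 to 0.26, adjusted p = 0.797, limma), or 0.0745 without shPQBP1 sample 3. CASP6 was at -0.19 (adjusted p = 0.395) and BID, which carries the signal of caspase-8 to the mitochondria, at -0.16 (adjusted p = 0.372), both with overlapping groups, and CASP6 was at -0.08 without shPQBP1 sample 3. BID was at -0.25 without shNC sample 2 and at -0.097 with the GC content and length correction.

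TNFRSF10B is a known target of the ATF4 and CHOP stress response, so 7 genes of stress responses were read beside the receptors. None of the 7 passed the adjusted test in limma, against 2.91% of all genes tested. At an unadjusted p of 0.05, 2 passed, the lower CDKN1A and ATF4, against 23.6% of all genes, a share near that of the list. CDKN1A, which encodes the cell cycle inhibitor p21, was at 101, 87.1 and 87.0 FPKM in shNC and at 18.8, 79.4 and 17.0 in shPQBP1. Samples 1 and 3 of shPQBP1 were far below sample 2. The log2 difference was -1.64 (adjusted p = 0.166), and without shPQBP1 sample 2 it was -2.35 (adjusted p = 0.00914). Without any one of the other samples its unadjusted call was lost, at a log2 difference of -1.67 to -1.24. TNFRSF10B was at 52.4 and 53.1 FPKM in shPQBP1 samples 1 and 3 and at 57.4 in sample 2. FAS went the other way, at 12.0 and 11.9 and at 10.9. A link of either gene to the level of CDKN1A was not tested. ATF4 was at -0.21 (adjusted p = 0.203) and DDIT3, which encodes CHOP, at -0.26 (adjusted p = 0.260). Without shNC sample 1 ATF4 was at -0.13, and with the GC content and length correction it was at -0.10. Its unadjusted call was lost without shNC sample 3 or any one of the shPQBP1 samples.

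**Figure D5:**
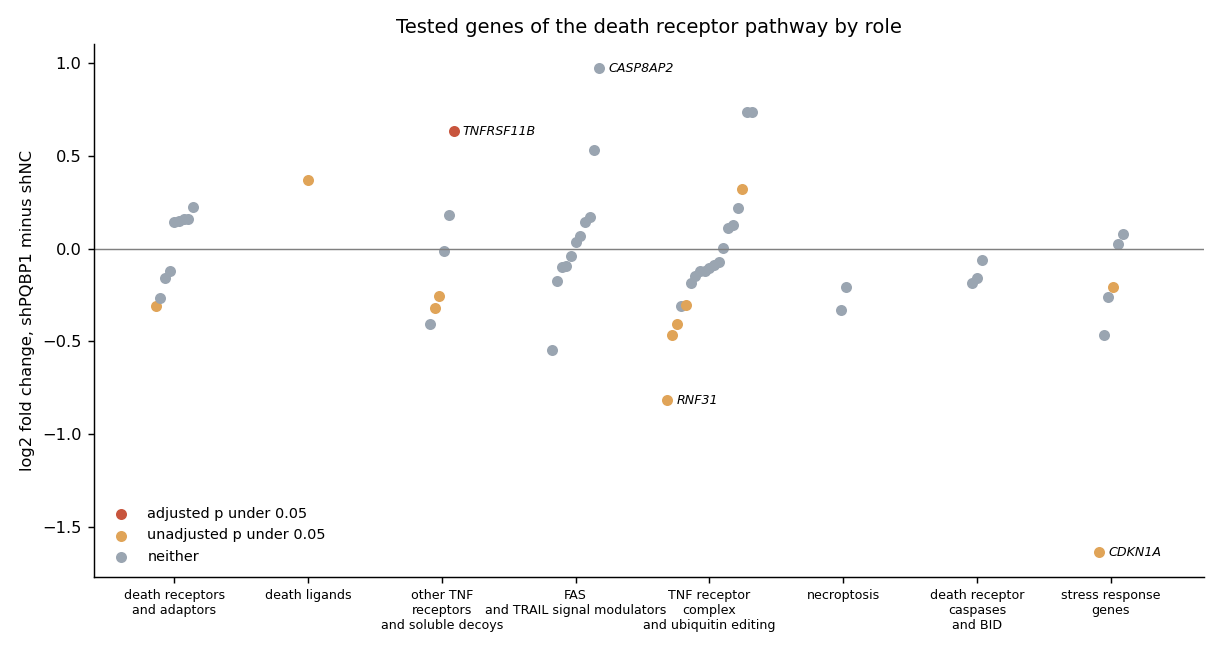
Log2 fold change (shPQBP1 minus shNC, on log2(FPKM + 0.1)) of the 9 tested death receptor genes and of 48 of the 51 tested genes of 7 pathway lists, 1 point a gene and 1 column a list. Red points passed an adjusted p of 0.05, orange points an unadjusted p of 0.05 alone and grey points neither; TNFRSF11B is the only red point.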

How the data were processed

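Reads were aligned by the authors with HISAT2 (version 2.2.0; build hg38) and handled with SAMtools (version 1.9) and StringTie (version 1.3.0). The release of the annotation, the strand setting and how FPKM were made are not given in the sources used here. The authors deposited 1 table with FPKM per gene and sample, rounded to 2 decimals, and no FPKM column was left out. The table also holds the authors' fold changes, p-values and q-values, which were not used. Low values showed no steps of whole reads, so no count test was run.

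The genes and pathway lists were chosen with earlier results of these data known. Values were tested as log2(FPKM + 0.1), for genes with a mean of at least 1 FPKM, in R (version 4.3.3) with limma (version 3.58.1), using lmFit and then eBayes with its trend option. Tests were two-sided, and p-values of the 11413 genes were adjusted by Benjamini-Hochberg. The moderated test gave the 95% intervals. Exact permutation tests of single genes used the same log2 values. The fit was tested on simulated data. Named were the 10 genes, PQBP1, in each list those at an adjusted p under 0.05 and then the smallest p up to 4, and TNFSF10, FASLG, TNF, CASP8, BID, RIPK3 and MLKL; LOXL2, SLC39A14, CHILL1, RHOBTB2, TNFAIP3 and BIRC3 were picked after their values were seen. A few genes that this rule names are not reported here. Alternatives were 2 scalings, 2 filters, 2 pseudocounts, no trend, the replicate block, a GC content and length correction (splines with 5 degrees of freedom, GENCODE release 44), both together, and each sample left out. Gene positions are from GENCODE release 44.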

Additional observations from a re-analysis of the deposited data

How the results depend on the processing

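Under 10 alternatives and with each of the 6 samples left out, TNFRSF10A, TNFRSF10B, TNFRSF10D, TNFRSF1A, CFLAR, TRADD and RIPK1 kept the direction of their difference wherever they were tested (CFLAR and TRADD are below a mean of 10 FPKM). FAS reversed to -0.079 with the GC content and length correction, with or without the replicate block, and to -0.12 without shNC replicate 1, over a range of -0.12 to 0.34 with single samples left out. FADD reversed to 0.0625 with the correction, with or without the block. CASP8 reversed to 0.0745 without shPQBP1 replicate 3, over a range of -0.13 to 0.0745 with single samples left out. With the correction, with or without the block, CASP8 was at -0.16. TNFRSF10B passed the adjusted test under the correction alone, at -0.27, so that 1 of the 9 genes passed there. At an unadjusted p under 0.05, 3 of the 9 genes passed with median-of-ratios scaling, against 23.6% of all genes. With quantile normalization 2 passed, against 24.2%. With all genes above 0, where all 10 were tested, 4 passed, against 13.5%. The correction gave 5, against 27.6%, and the correction and the block gave 4, against 21.2%. With single samples left out 1 to 2 passed, against 15.6% to 25.8%. Genes passing the adjusted test among all genes numbered 190 with all genes above 0, 211 at a mean of at least 10 FPKM, 938 with the correction, 21 with the correction and the block, and 30 to 466 with single samples left out. Among the pathway lists the adjusted count was 0 with all genes above 0, at 10 FPKM, with the block, the correction or both. It was 0 to 2 of 50 or 51 genes with single samples left out. The unadjusted count at 10 FPKM was 4 of 17 genes, against 26.1% of all genes. With single samples left out it was 6 to 19 of 50 or 51 genes, against 15.6% to 25.8%. The causes were not tested.

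The labels do not say whether same-numbered samples are pairs. Deviations of same-numbered samples from their group means correlated at -0.19, -0.14 and -0.01, and no shNC sample correlated best with its own number. Because the deviations of the 3 samples in a group sum to 0, these correlations cannot decide whether the samples were paired. With the replicate block, limma called 0 genes at an adjusted p under 0.05 (1840 at an unadjusted p), and PQBP1 was at -2.04 (adjusted p = 0.0686), or at -1.86 with the correction added (adjusted p = 0.0543). With single samples left out, the log2 ratio difference of TNFRSF10A plus TNFRSF10B to the decoys was -0.18 to -0.11 and that of CFLAR to CASP8 was 0.25 to 0.38.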
